A study of Mus musculus with 12 samples.

Results

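The aldehyde dehydrogenase (Aldh) genes examined here numbered 10, of 21 genes with an Aldh symbol and 22471 features in the deposited tables. They were Aldh1a1, Aldh1a7, Aldh1b1, Aldh2, Aldh3a2, Aldh4a1, Aldh6a1, Aldh7a1, Aldh8a1 and Aldh9a1. These members were named by symbol, and were chosen from their read counts scaled by library size (CPM) over the 4 groups with earlier results of the same libraries in view, so their levels and differences are given as a description. Calls from fits over all genes are stated for them beside the share of all genes called, and nothing is rested on those calls. No threshold on the values was stated for the choice, so there were no genes just inside or outside one. All 10 members passed the filter on low counts in every comparison.

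The libraries were made from primary cultured hepatocytes, the parenchymal cells of the liver, of young male C57BL/6J mice, which the study isolated by collagenase perfusion and density centrifugation and cultured with serum. There were 12 libraries, 3 in each of 4 groups: control (labelled Con), oleic acid (OA, labelled ConOA), benzbromarone (BBR, labelled BBR) and both agents together (BBR+OA, labelled BBROA). OA is a monounsaturated fatty acid that loads hepatocytes with lipid and was given bound to albumin, and BBR is a uricosuric drug. No genotype, strain or culture time is given as differing between the groups. The labels give the tissue as liver, and the design text of the series calls the OA condition a high-fat diet by oleic acid supplementation, whereas its title and the study's methods speak of cultured hepatocytes, which is how the groups are read here. The series describes the replicates as biological without saying whether they came from separate mice or separate wells, so every error and p-value below covers the spread between these labelled replicates only.

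Aldehyde dehydrogenases oxidize aldehydes to carboxylic acids with NAD or NADP as the cofactor. In hepatocytes they clear acetaldehyde formed from ethanol and fatty aldehydes formed from lipids, turn retinal into retinoic acid, and carry out single steps in the breakdown of valine, proline, lysine, tryptophan and choline. In the liver the family is best known for Aldh2, the mitochondrial acetaldehyde enzyme of ethanol metabolism.

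The upstream sequences of 4 members are shown first, since they were among the members with higher levels with BBR+OA than with OA alone and Aldh1a1 and Aldh1a7 lie side by side in the genome. RefSeq promoters (GRCm38.p6, from 250 bases before to 50 bases after the start of the gene, 5′ to 3′ along the gene) were matched for 8 of the 10 members, which had 10 promoters between them. Aldh1a1 and Aldh1a7 are neighbours on chromosome 19, with 49487 bases between them in GENCODE. Their promoters, chr19:20601718-20602017 on the plus strand for the downstream start of Aldh1a1 and chr19:20727507-20727806 on the minus strand for Aldh1a7, had 154 identical bases of 159 aligned (96.86%), and capitals mark these identical bases:
Aldh1a1: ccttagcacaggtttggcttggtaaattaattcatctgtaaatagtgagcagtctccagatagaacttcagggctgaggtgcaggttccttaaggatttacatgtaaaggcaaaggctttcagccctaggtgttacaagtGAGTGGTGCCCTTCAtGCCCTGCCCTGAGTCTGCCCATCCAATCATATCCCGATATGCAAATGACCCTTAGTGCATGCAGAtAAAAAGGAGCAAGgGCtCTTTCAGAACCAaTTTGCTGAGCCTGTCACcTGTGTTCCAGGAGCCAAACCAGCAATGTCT
Aldh1a7: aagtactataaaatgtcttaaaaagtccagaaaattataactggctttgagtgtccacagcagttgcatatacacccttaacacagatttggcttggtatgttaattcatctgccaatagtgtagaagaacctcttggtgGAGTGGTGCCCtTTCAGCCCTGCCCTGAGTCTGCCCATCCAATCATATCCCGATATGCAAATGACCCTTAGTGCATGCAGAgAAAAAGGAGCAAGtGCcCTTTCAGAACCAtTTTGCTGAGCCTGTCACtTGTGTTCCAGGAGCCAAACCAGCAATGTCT
The aligned block ran from base 141 to base 300 of both windows. It was the single best local alignment, and similar letters before it, which lie at other offsets in each window, were not aligned. A CCAAT box lay 72 bases before the start in both. The upstream start of Aldh1a1, from chr19:20492333-20492632, shared an aligned stretch of only 17 bases with the promoter of Aldh1a7.

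Aldh3a2 (chr11:61267137-61267436, minus strand) and Aldh9a1 (chr1:167349741-167350040, plus strand) were the other members shown, with capitals for the motif letters found on either strand:
Aldh3a2: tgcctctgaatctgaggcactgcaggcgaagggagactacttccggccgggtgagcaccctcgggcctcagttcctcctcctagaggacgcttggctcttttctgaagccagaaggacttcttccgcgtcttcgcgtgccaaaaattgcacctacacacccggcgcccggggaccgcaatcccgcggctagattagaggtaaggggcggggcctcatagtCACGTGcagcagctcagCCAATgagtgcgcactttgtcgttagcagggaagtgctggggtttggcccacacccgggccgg
Aldh9a1: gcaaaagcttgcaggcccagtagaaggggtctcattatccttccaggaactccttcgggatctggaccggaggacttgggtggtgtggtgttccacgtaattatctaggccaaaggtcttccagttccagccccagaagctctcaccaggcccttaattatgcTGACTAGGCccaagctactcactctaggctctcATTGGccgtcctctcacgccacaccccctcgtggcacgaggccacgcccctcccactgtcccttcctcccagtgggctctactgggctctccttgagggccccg
Each motif was searched on both strands. The nuclear receptor half-site AGGTCA was in 16.3% of the 32851 promoters and 1 of the 10 member promoters, the downstream one of Aldh6a1 (chr12:84448268-84448567). Its direct repeat with 1 base between the copies, which overlaps it, was in 0.0396% of all promoters and in none of the members. The antioxidant response letters TGACNNNGC were in 12.4% of all promoters and in that of Aldh9a1, 87 bases before the start. The E-box CACGTG was in 7.15% of all promoters and in that of Aldh3a2, 30 bases before the start. The TATA box TATAAA was in 13.6% of all promoters and in that of Aldh1a7. The CCAAT box was in 37.4% of all promoters and 8 of the 10 member promoters. These matches describe letters in the windows and were not tied to any factor.

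Library totals ranged from 15485508 to 23668379 counts, so that a gene with no count could still have had up to 0.194 CPM (3 counts), a limit for counting error only. The lowest count of any member was 25, for Aldh8a1 in a BBR library, and Aldh2 had at least 4675 counts in every library. All 12 hepatocyte markers were above 1 CPM in every group, although the urea cycle gene Cps1 averaged 17.9 CPM in control and 9.71 CPM with BBR against 177 and 193 CPM in the OA and BBR+OA groups. The summed markers of Kupffer cells stayed between 27.4 and 44.3 CPM in every library, those of endothelial cells between 51.3 and 69.4 CPM and those of stellate cells between 23.1 and 30.2 CPM. Single Kupffer cell markers moved in opposite directions with OA. From control to OA, Marco went from 1.20 to 6.89 CPM and Adgre1 from 2.40 to 6.36 CPM, whereas Cd5l went from 5.98 to 2.87 CPM and C1qa from 5.48 to 3.43 CPM. The cholangiocyte list summed to 590 to 723 CPM in control, 243 to 272 CPM with OA, 391 to 422 CPM with BBR and 199 to 241 CPM with BBR+OA. Most of that sum was Spp1, with group means of 613, 204, 343 and 167 CPM in the same order, while Krt7 stayed at or under 0.0917 CPM and Cldn7 at or under 0.595 CPM in the group means. The other 3 markers of that list did not follow Spp1: in the same order, Sox9 averaged 32.3, 48.6, 48.9 and 42.6 CPM, Krt19 6.91, 8.05, 11.2 and 8.51 CPM and Epcam 1.86, 1.58, 3.53 and 2.70 CPM. The cholangiocyte sums moved with both agents, and the part of any of these cell types in the differences below was not tested. In such cultures, fewer cells of a type and less RNA per cell cannot be told apart.

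On the deposited FPKM scale (fragments scaled by transcript length and depth), Aldh2 was the most abundant member. It averaged 285 ± 14.6 (SD, n = 3) in control, followed by Aldh1a1 at 107 ± 5.75 and Aldh7a1 at 60.8 ± 0.734. Aldh3a2 (39.00 ± 1.48), Aldh9a1 (23.7 ± 0.437), Aldh1a7 (18.3 ± 0.235), Aldh4a1 (11.5 ± 0.523) and Aldh6a1 (7.87 ± 0.924) came next in FPKM. Aldh1b1 (2.41 ± 0.11) and Aldh8a1 (1.47 ± 0.211) were the lowest in FPKM. No neighbours in this order overlapped in the control libraries. With BBR, Aldh1a1 (58.3 ± 10.97) overlapped Aldh7a1 (48.1 ± 5.15) in FPKM and Aldh7a1 overlapped Aldh3a2 (39.5 ± 4.67), while the Aldh1a1 libraries stayed above those of Aldh3a2. Aldh1a7 moved up from the sixth place, and overlapped Aldh3a2 with OA and Aldh9a1 with BBR+OA. In the BBR+OA group Aldh4a1 and Aldh6a1 also overlapped in FPKM.

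**Figure D1:**
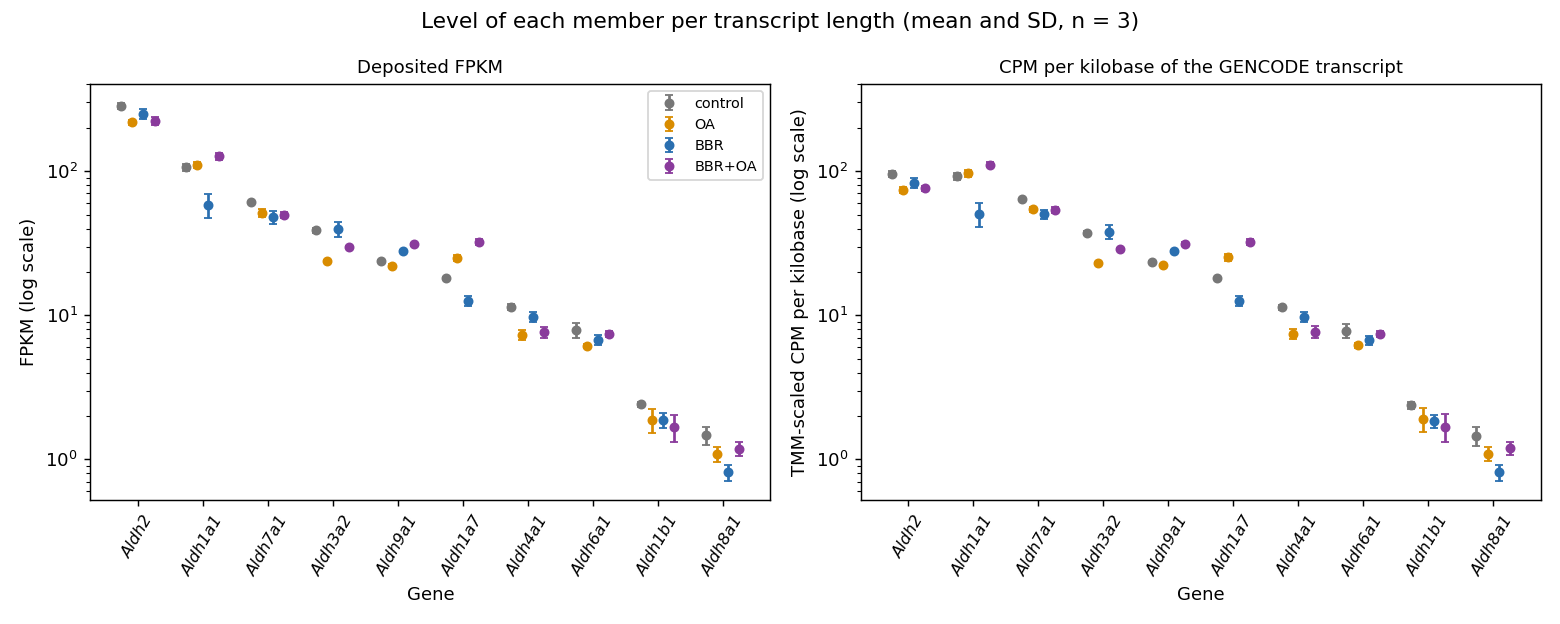
Mean level and SD (n = 3 libraries) of the 10 members in each group, as deposited FPKM on the left and as TMM-scaled CPM per kilobase of the GENCODE transcript on the right, both on log axes. Aldh2 is the highest member in FPKM in every group, whereas per kilobase of the GENCODE transcript Aldh1a1 lies above it in the OA and BBR+OA groups; Aldh1b1 and Aldh8a1 are the lowest on both scales.

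The place of Aldh2 depended on the length used. Its FPKM implied a length of 1306 bases, against 3867 bases for the GENCODE transcript. Per kilobase of the GENCODE transcript, Aldh2 was at 95.7 ± 4.07 CPM and Aldh1a1 at 91.9 ± 4.74 CPM in control. With BBR+OA, Aldh2 was at 75.9 ± 3.24 CPM per kilobase and Aldh1a1 at 111 ± 5.19 CPM per kilobase. For the other members the implied length lay much closer to the GENCODE one. Aldh2 took 51.2% ± 1.52 of the members' summed FPKM in control and 43.7% ± 0.932 with BBR+OA (SD, n = 3), and Aldh1a1 took 19.2% ± 1.196 and 24.8% ± 0.344. The summed level of the 10 members was 1001 ± 20.3 CPM in control, 858 ± 27.2 CPM with OA, 823 ± 72.5 CPM with BBR and 962 ± 22.6 CPM with BBR+OA.

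Among the cytosolic class 1 enzymes, Aldh1a1 oxidizes retinal to retinoic acid and also takes aldehydes from lipid peroxidation. On the CPM scale, scaled by trimmed mean of M values (TMM), Aldh1a1 (chromosome 19, 20492715 to 20643465, plus strand) had 213, 229 and 208 CPM in the control libraries, 238, 216 and 229 CPM with OA, 142, 98.1 and 117 CPM with BBR and 276, 259 and 252 CPM with BBR+OA. The 3 BBR libraries lay below all 9 others, and the 3 BBR+OA libraries lay above all others. Aldh1a7 (chromosome 19, 20692953 to 20727562, minus strand), a rodent paralog of Aldh1a1, had 37.4, 37.3 and 37.2 CPM in the control libraries, 52.2, 49.4 and 54.8 CPM with OA, 28.1, 24.02 and 25.9 CPM with BBR and 63.2, 68.2 and 69.5 CPM with BBR+OA. No pair of groups overlapped for Aldh1a7, and the order ran from BBR through control and OA to BBR+OA. The transcripts of this pair were 90.34% identical over 2009 aligned bases, and 6.54% of the 50-base windows of Aldh1a1 and 7.49% of those of Aldh1a7 occurred in both, so that the counts of either may hold some reads of the other. The ratio of Aldh1a1 to Aldh1a7 in FPKM was 5.85 ± 0.298 in control, 4.39 ± 0.184 with OA, 4.59 ± 0.486 with BBR and 3.95 ± 0.391 with BBR+OA (SD, n = 3). The control ratios lay above those of all other libraries, so the pair did not move by 1 common factor between control and the other groups. The ratios with OA, BBR and BBR+OA overlapped each other. Reads shared by the pair could alter these ratios, which was not tested.

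Aldh2 and Aldh1b1 are mitochondrial enzymes that oxidize acetaldehyde and other short aldehydes. Aldh2 (chromosome 5, 121566027 to 121593824, minus strand) had 387, 357 and 366 CPM in the control libraries, 300.4, 279.9 and 280.0 CPM with OA, 351, 301 and 315 CPM with BBR and 308, 287 and 286 CPM with BBR+OA. All control libraries were above all others for Aldh2, and the OA, BBR and BBR+OA groups were lower, with the BBR+OA libraries inside the span of the OA and BBR libraries. Aldh1b1 (chromosome 4, 45799022 to 45804604, plus strand) had 5.12, 5.59 and 5.69 CPM in the control libraries, 5.32, 3.79 and 4.04 CPM with OA, 4.695, 4.25 and 3.82 CPM with BBR and 3.24, 3.54 and 4.83 CPM with BBR+OA. Its OA, BBR and BBR+OA groups overlapped each other at counts of 64 to 102 per library, and only the BBR and BBR+OA libraries lay wholly below the control libraries.

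Aldh3a2 is the fatty aldehyde dehydrogenase, a membrane enzyme that converts long-chain aldehydes from sphingolipids, ether lipids and phytol to fatty acids. Aldh3a2 (chromosome 11, 61223417 to 61267464, minus strand) had 117, 119 and 110.1 CPM in the control libraries, 72.7, 70.6 and 71.8 CPM with OA, 133, 113 and 107 CPM with BBR and 89.7, 91.1 and 88.3 CPM with BBR+OA. Control and BBR libraries overlapped, the OA libraries were the lowest, and the BBR+OA libraries lay between the OA libraries and the rest without touching either.

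Aldh9a1 oxidizes trimethylaminobutyraldehyde in the synthesis of carnitine, the carrier of fatty acids into mitochondria. Aldh9a1 (chromosome 1, 167349991 to 167368532, plus strand) had 67.05, 65.4 and 66.6 CPM in the control libraries, 63.9, 63.2 and 62.1 CPM with OA, 79.4, 78.2 and 80.6 CPM with BBR and 85.8, 89.3 and 90.9 CPM with BBR+OA. Each BBR and BBR+OA library exceeded every library without BBR, and the 4 groups did not overlap, although OA and control lay close together.

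The remaining members act on amino acids. Aldh4a1 completes the conversion of proline to glutamate, and Aldh4a1 (chromosome 4, 139622866 to 139649690, plus strand) had 38.99, 39.4 and 36.7 CPM in the control libraries, 22.7, 26.1 and 26.2 CPM with OA, 35.3, 30.5 and 33.3 CPM with BBR and 23.6, 28.7 and 25.9 CPM with BBR+OA. The OA and BBR+OA libraries were both lower than all libraries without OA. The annotated read-through gene Gm21969 shares 45.0% of the 50-base windows of Aldh4a1, so the counts of Aldh4a1 cannot be told apart from reads of that transcript over those windows. Aldh6a1, the methylmalonate semialdehyde dehydrogenase of valine breakdown (chromosome 12, 84430717 to 84451004, minus strand), had 29.4, 23.5 and 26.3 CPM in the control libraries, 20.4, 20.8 and 21.96 CPM with OA, 24.5, 23.1 and 21.1 CPM with BBR and 26.6, 25.4 and 24.2 CPM with BBR+OA. Its OA libraries lay below all control and BBR+OA libraries, and its control libraries spread more widely than those of most members.

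Aldh7a1 acts in lysine breakdown and on betaine aldehyde. Aldh7a1 (chromosome 18) had 123, 121 and 122 CPM in the control libraries, 107, 99.2 and 107 CPM with OA, 104, 89.8 and 95.7 CPM with BBR and 109, 99.4 and 99.9 CPM with BBR+OA. The control libraries were the highest, and the other groups overlapped. Aldh8a1 takes part in the kynurenine route of tryptophan breakdown, and Aldh8a1 (chromosome 10, 21377291 to 21396585, plus strand) had 2.71, 3.58 and 3.58 CPM in the control libraries, 2.72, 2.17 and 2.55 CPM with OA, 2.07, 1.61 and 1.83 CPM with BBR and 2.68, 2.43 and 2.98 CPM with BBR+OA. The BBR libraries were the lowest and touched no other group, at only 25 to 45 counts each. Genes on the opposite strand overlap Aldh6a1 and Aldh7a1, and whether the counting used strand is not given in the sources used here. Bbof1, opposite Aldh6a1, averaged at most 0.579 CPM in any group, and Phax, opposite Aldh7a1, averaged 34.1 to 38.5 CPM.

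**Figure D2:**
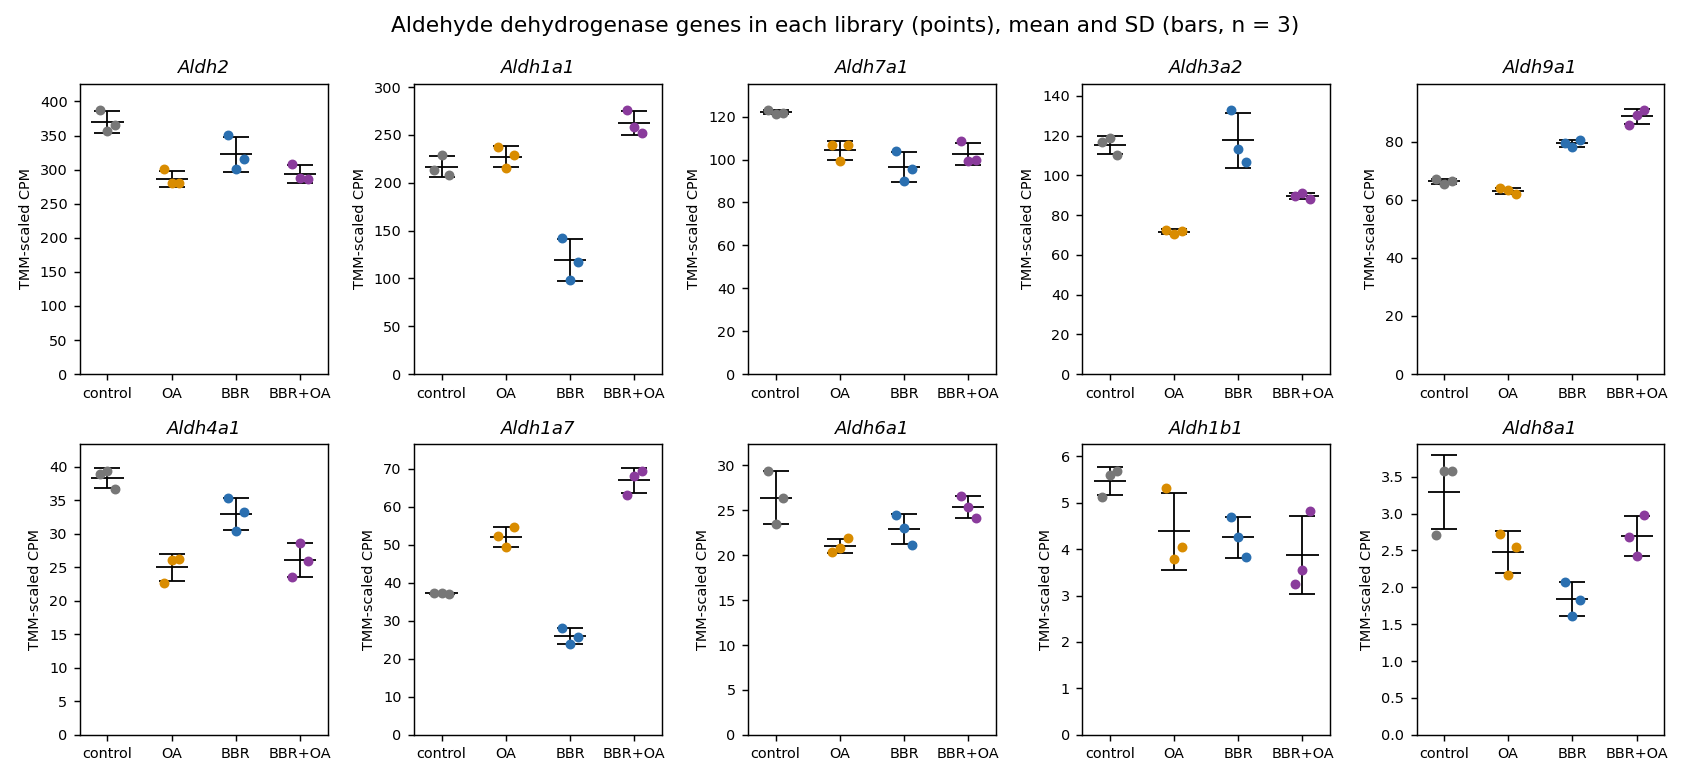
TMM-scaled CPM (vertical axes, from 0, each panel with its own scale) of each member in the 12 libraries, with points for libraries and bars for the group mean and SD (n = 3). Aldh1a1 and Aldh1a7 are lowest with BBR and highest with BBR+OA, at 26.01 ± 2.05 and 66.99 ± 3.33 CPM for Aldh1a7, while Aldh3a2 and Aldh4a1 are lower in both groups with OA than in the groups without it.

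BBR was compared with control to show the drug's effect without added lipid. Aldh1a1 was 1.80-fold lower with BBR (log2 difference -0.85 ± 0.09, SE), Aldh8a1 was 1.77-fold lower (-0.82 ± 0.20) and Aldh1a7 was 1.42-fold lower (-0.51 ± 0.07). Aldh7a1 (-0.33 ± 0.05), Aldh4a1 (-0.20 ± 0.07) and Aldh2 (-0.19 ± 0.06) were lower by smaller log2 differences. Aldh9a1 was the member that was higher, by 1.20-fold (0.27 ± 0.05). In the edgeR quasi-likelihood fit over 12555 genes, at a Benjamini-Hochberg adjusted p under 0.05, 6 members were called lower and 1 higher, where 14.5% of all genes were called lower and 13.2% higher. The rule that chose the members used these same libraries, so nothing is read from that count. The members' median log2 difference was -0.27 against -0.000854 for all genes. Aldh1b1 (-0.35 ± 0.14), Aldh6a1 (-0.20 ± 0.08) and Aldh3a2 (0.04 ± 0.07) were not called. Under 13 alternatives the calls of Aldh2 and Aldh4a1 were lost in 4 and 6, including the fits without control replicate 1, BBR replicate 2 or BBR replicate 3, and for Aldh4a1 also without control replicate 2.

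BBR+OA was compared with OA to show the effect of BBR in lipid-loaded hepatocytes. Here Aldh9a1 was 1.40-fold higher (log2 difference 0.49 ± 0.05, SE), Aldh1a7 1.28-fold higher (0.36 ± 0.06) and Aldh3a2 1.25-fold higher (0.32 ± 0.05). Aldh6a1 (0.27 ± 0.07) and Aldh1a1 (0.20 ± 0.05) were higher by smaller log2 differences. In the edgeR fit over 12278 genes 5 members were called higher and none lower, where 1.95% of all genes were called higher and 2.63% lower. At an unadjusted p under 0.05 the counts were also 5 and 0, and in DESeq2 they were 4 and 0. As above, the choice of members used these libraries and nothing is read from the count. The median log2 difference of the members was 0.16 against -0.000312 for all genes. Aldh8a1 (0.12 ± 0.19), Aldh4a1 (0.06 ± 0.08), Aldh2 (0.03 ± 0.05), Aldh7a1 (-0.03 ± 0.05) and Aldh1b1 (-0.19 ± 0.19) were not called, and their groups overlapped. The calls of Aldh1a1 and Aldh6a1 depended on single libraries: both were lost without OA replicate 2 or any 1 of the BBR+OA replicates, which left 3 members called, and that of Aldh6a1 was also lost without OA replicate 1, which left 4. Both were also lost with FPKM in limma and in the fit of all 12 libraries, and that of Aldh6a1 in DESeq2. The call of Aldh1a1 was kept in 7 of 13 alternatives and that of Aldh6a1 in 5.

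OA was compared with control to show the effect of lipid loading alone. Aldh3a2 was 1.60-fold lower with OA (log2 difference -0.68 ± 0.05, SE) and Aldh4a1 1.52-fold lower (-0.61 ± 0.07). Aldh2 (-0.36 ± 0.05), Aldh6a1 (-0.32 ± 0.08) and Aldh7a1 (-0.22 ± 0.05) were also lower on the log2 scale. Aldh1a7 was 1.41-fold higher (0.49 ± 0.06), whereas its neighbour Aldh1a1 (0.08 ± 0.05) was not called. In the edgeR fit over 12418 genes 5 members were called lower and 1 higher, where 21.5% of all genes were called lower and 21.3% higher, and again nothing is read from the count. The median log2 difference of the members was -0.32 against -0.00603 for all genes. Aldh8a1 (-0.41 ± 0.19), Aldh1b1 (-0.32 ± 0.15) and Aldh9a1 (-0.07 ± 0.05) were not called, although the OA and control libraries of Aldh9a1 did not overlap. Upper quartile scaling moved the share of higher genes among those called from 49.8% to 39.2%, and kept 5 members lower and 1 higher.

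BBR+OA was compared with BBR to show the effect of OA in drug-treated cells. Aldh1a7 was 2.56-fold higher with BBR+OA (log2 difference 1.36 ± 0.06, SE) and Aldh1a1 2.19-fold higher (1.13 ± 0.09). Aldh9a1 was 1.11-fold higher (0.16 ± 0.04). Aldh3a2 (-0.39 ± 0.07) and Aldh4a1 (-0.35 ± 0.08) were lower. In the edgeR fit over 12416 genes 3 members were called higher and 2 lower, where 20.1% of all genes were called higher and 18.8% lower, with nothing read from the count. The median log2 difference of the members was 0.12 against -0.00606 for all genes. Aldh8a1 (0.53 ± 0.20), Aldh6a1 (0.15 ± 0.07), Aldh7a1 (0.09 ± 0.06), Aldh2 (-0.14 ± 0.06) and Aldh1b1 (-0.15 ± 0.18) were not called. Upper quartile scaling moved the share of higher genes among those called from 51.7% to 40.8% and lost the call of Aldh9a1, and 3 members were then called lower. The comparisons share groups: OA against control and BBR against control use the same control libraries, and BBR+OA stands in 2 comparisons.

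Whether BBR acted differently in lipid-loaded cells was fitted as an interaction term over all 12 libraries, the log2 change by BBR under OA minus that in its absence. A positive value means a BBR effect that was higher with OA than without. The fitted value was positive for all 10 members, of which 3 were not called. The share of all genes with a positive value was not counted, so nothing is read from this. The term was 1.06 ± 0.12 (log2, SE) for Aldh1a1, 0.95 ± 0.27 for Aldh8a1 and 0.87 ± 0.09 for Aldh1a7. It was 0.47 ± 0.11 for Aldh6a1, 0.31 ± 0.08 for Aldh7a1, 0.29 ± 0.09 for Aldh3a2 and 0.23 ± 0.06 for Aldh9a1, and these 7 were called. In the edgeR fit over 12742 genes 6.87% of all genes were called with a positive term and 5.31% with a negative one, and the members' choice used the same libraries, so the count of 7 positive and 0 negative is a description. At an unadjusted p under 0.05 the members' counts were 9 and 0, and in DESeq2 7 and 0. The median log2 term of the members was 0.30 against 0.0122 for all genes. Aldh4a1 (0.27 ± 0.11), Aldh2 (0.23 ± 0.08) and Aldh1b1 (0.17 ± 0.24) were not called. Aldh1a1 and Aldh1a7 were the 2 members whose BBR effects were called in both settings and in opposite directions, lower without OA and higher with it. For Aldh1a1 the call with OA was kept in only 7 of 13 alternatives. The interaction terms of Aldh1a1, Aldh1a7 and Aldh6a1 were called in all 18 alternatives, whereas that of Aldh3a2 was called in 9 and that of Aldh8a1 in 11. The count of members called was 3 without OA replicate 2 (Aldh1a1, Aldh1a7 and Aldh6a1) and 4 without BBR+OA replicate 1 or 3.

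**Figure D3:**
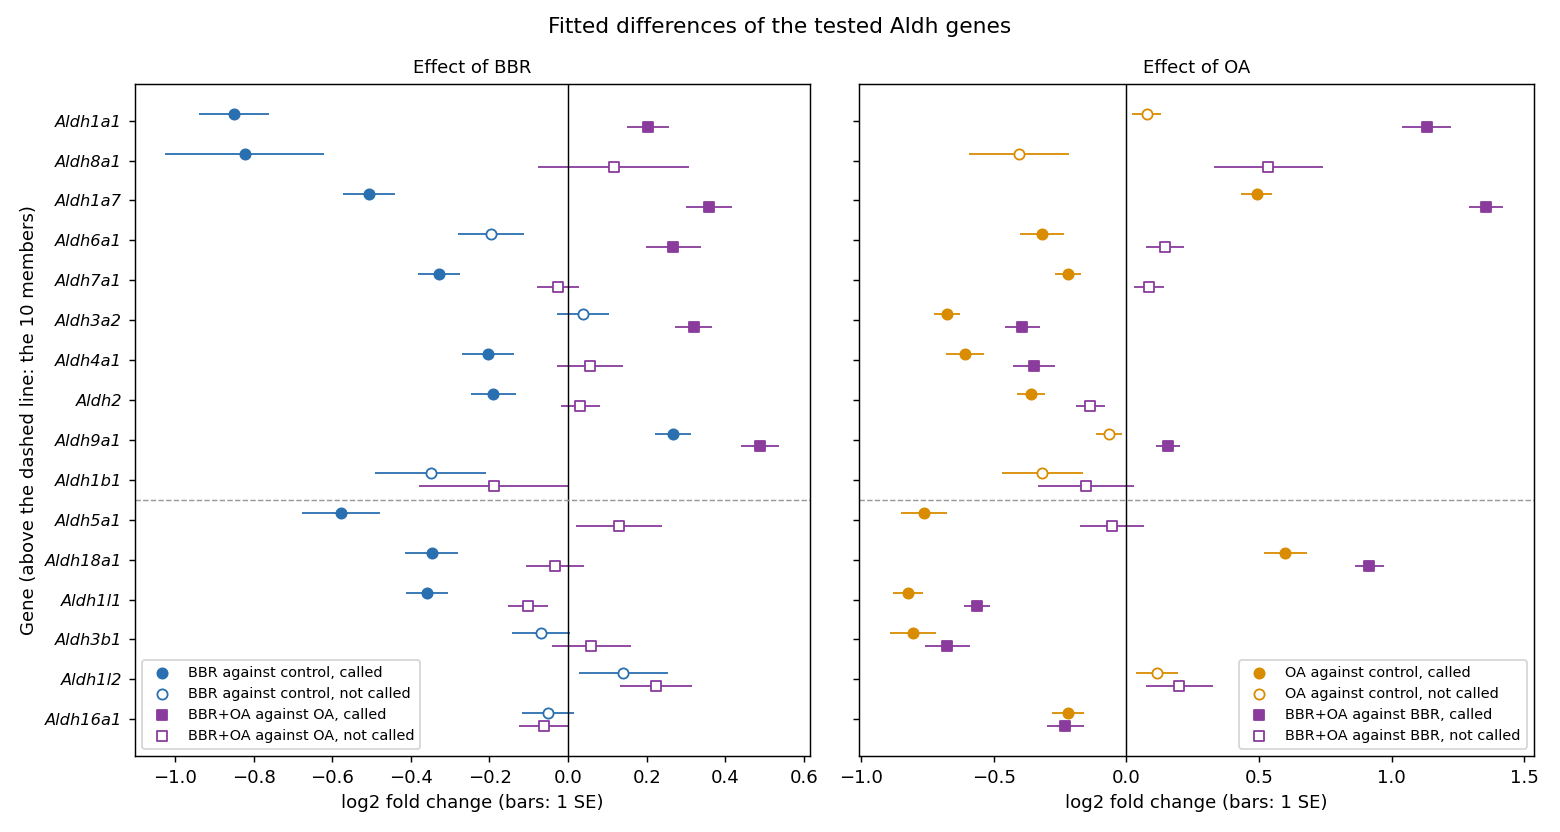
Fitted log2 fold change with 1 SE (horizontal axes) for the 16 tested Aldh genes, with the effect of BBR on the left and that of OA on the right; filled symbols were called at an adjusted p under 0.05, and the 10 members stand above the dashed line. Aldh1a1 and Aldh1a7 lie left of 0 for BBR against control and right of 0 for BBR+OA against OA, and Aldh9a1 lies right of 0 in both.

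The widest ranges of group means were those of Aldh1a7 (1.36 on the log2 scale), Aldh1a1 (1.15) and Aldh8a1 (0.80), and the narrowest that of Aldh6a1 (0.32). Profiles were compared by the root mean square difference of centred log2 CPM over the 12 libraries among 12742 genes, as a description. Nearest to Aldh1a1 were Gfra1 (0.0820), Pllp (0.0996) and Gpt2 (0.114). Gpt2, a mitochondrial alanine aminotransferase, averaged 187 CPM in control, 215 CPM with OA, 95.5 CPM with BBR and 223 CPM with BBR+OA. Nearest to Aldh1a7 were Cgref1 (0.0966), Rras2 (0.122) and Ankrd1 (0.139), all lowest with BBR and highest with BBR+OA, and Rras2 went from 116 CPM with BBR to 273 CPM with BBR+OA. Nearest to Aldh8a1 were Mat1a (0.116), Masp1 (0.123) and Zfp691 (0.134). Mat1a, the liver enzyme that makes S-adenosylmethionine, averaged 55.5 CPM in control and 29.5 CPM with BBR.

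The files held 11 further Aldh genes, of which 6 passed the filter. Aldh1l1, a cytosolic folate enzyme, averaged 149 ± 8.67 CPM in control, 83.5 ± 3.74 CPM with OA, 115 ± 6.42 CPM with BBR and 78.02 ± 1.28 CPM with BBR+OA (SD, n = 3). It fell by 0.82 on the log2 scale with OA (edgeR adjusted p = 6.09e-08) and by 0.36 with BBR (adjusted p = 0.000118). Aldh5a1, the succinate semialdehyde dehydrogenase of GABA breakdown, averaged 15.9 ± 0.744 CPM in control and 10.5 ± 1.39 CPM with BBR, a log2 change of -0.58 ± 0.10 (adjusted p = 0.000339). Aldh18a1, which makes the precursor of proline, was the one that rose with OA, from 32.96 ± 2.11 to 49.7 ± 5.96 CPM (log2 change 0.60 ± 0.08, adjusted p = 3.87e-05). Aldh3b1 fell from 21.3 ± 0.932 to 12.1 ± 1.26 CPM with OA (log2 change -0.81 ± 0.09, adjusted p = 5.31e-06), and Aldh16a1 fell less (-0.22 ± 0.06, adjusted p = 0.00894). Aldh1l2, the mitochondrial folate form, averaged 27.2 ± 2.71 CPM in control and 34.4 ± 5.08 CPM with BBR+OA and was called in no comparison.

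Of these 6 genes, 3 fell and none rose with BBR, and 4 fell and 1 rose with OA. Over all genes, 14.5% were called lower and 13.2% higher with BBR, and 21.5% and 21.3% with OA. Between BBR+OA and BBR 3 were lower and 1 was higher, where 18.8% of all genes were called lower and 20.1% higher. The call of Aldh16a1 there was lost without BBR replicate 2 or BBR+OA replicate 3. None of the 6 was called between BBR+OA and OA by edgeR or DESeq2, and 1 had an unadjusted p under 0.05. There edgeR called 1.95% of all genes higher and 2.63% lower. The interaction term was called for Aldh5a1 (0.72 ± 0.15, adjusted p = 0.00343), Aldh1l1 (0.27 ± 0.08, adjusted p = 0.025) and Aldh18a1 (0.33 ± 0.10, adjusted p = 0.0487), and was kept in 18, 10 and 4 of 18 alternatives. Without control replicate 1, OA replicate 2, BBR replicate 2 or 3, or any 1 of the BBR+OA replicates, of these only Aldh5a1 was called. The remaining Aldh1a2, Aldh1a3, Aldh3a1, Aldh3b2 and Aldh3b3 had at most 6 counts in any library.

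Aldehydes are also made and removed by enzymes outside the family, and the lists of other genes below were chosen with earlier results known, so they are described by counts and medians beside the shares and medians of all genes given above. Of 25 tested alcohol dehydrogenases, aldo-keto and carbonyl reductases, aldehyde oxidases and related genes, 18 fell and none rose with OA, with a median log2 change of -0.45. With BBR, 11 fell and 1 rose, with a median of -0.15. Aox3, an aldehyde oxidase, averaged 15.2 ± 0.514 CPM in control, 5.001 ± 0.75 CPM with OA, 7.98 ± 0.0537 CPM with BBR and 6.16 ± 0.826 CPM with BBR+OA. Its log2 change was -1.60 ± 0.11 (adjusted p = 7.64e-08) with OA and -0.92 ± 0.09 (adjusted p = 1.46e-06) with BBR. Akr1c14, an aldo-keto reductase, changed by -1.48 ± 0.14 (adjusted p = 1.64e-06) with OA and by -1.59 ± 0.12 (adjusted p = 9.11e-08) with BBR, and Akr1c20 by -1.44 ± 0.23 (adjusted p = 0.000153) and -1.71 ± 0.26 (adjusted p = 0.000148). The Akr1c genes are near-identical in places and may share reads. Set against BBR alone, BBR+OA had 14 lower and 2 higher, led by Akr1b10 (-1.03 ± 0.13, adjusted p = 3.03e-05), Cbr3 (-0.80 ± 0.11, adjusted p = 3.71e-05) and Gsta4 (-0.77 ± 0.06, adjusted p = 1.85e-07). Against OA alone, BBR+OA changed only Akr7a5 among the called genes (0.24 ± 0.06, adjusted p = 0.0456), in 6 of 13 alternatives and not in DESeq2. The interaction was called positive for 7 of the 25, a count that was 4 without OA replicate 2, BBR replicate 2 or BBR+OA replicate 3.

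For Aldh3a2, the related list held 13 genes that form or feed long-chain aldehydes. With OA 1 rose and 4 fell (median log2 change -0.11), with BBR 3 rose and 5 fell (median -0.10), and between BBR+OA and OA none was called by edgeR or DESeq2, with 1 higher and 2 lower at an unadjusted p under 0.05. Sphk1, a sphingosine kinase, averaged 2.204 ± 0.617 CPM in control and 7.69 ± 1.11 CPM with OA (log2 change 1.83 ± 0.19, adjusted p = 3.29e-06). Agmo, which cleaves ether lipids to aldehydes, fell from 10.7 ± 0.229 to 4.14 ± 0.96 CPM with OA (-1.35 ± 0.14, adjusted p = 3.41e-06) and to 6.52 ± 0.317 CPM with BBR (-0.70 ± 0.10, adjusted p = 9.60e-05). Hacl1, of alpha-oxidation, fell with OA (-0.42 ± 0.08, adjusted p = 0.00096). Far1, a fatty acyl-CoA reductase, rose with BBR (0.64 ± 0.13, adjusted p = 0.00136), except in the FPKM analysis. Sgpl1, the sphingosine phosphate lyase that releases a fatty aldehyde, was lower with BBR+OA than with BBR (-0.26 ± 0.04, adjusted p = 0.000161). It averaged 144 CPM in control, 143 CPM with OA, 168 CPM with BBR and 141 CPM with BBR+OA, and was called higher with BBR than in control (0.23). The rise of Sphk1 with BBR (0.68 ± 0.21, adjusted p = 0.024) was lost without control replicate 3, BBR replicate 2 or BBR replicate 3. The interaction was called for 7 of the 13, with 4 positive and 3 negative, and the count fell to 4 without control replicate 3 or OA replicate 2 and to 3 without BBR+OA replicate 1 or 3.

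Choline, betaine and carnitine metabolism, the setting of Aldh9a1 and of the betaine aldehyde step of Aldh7a1, was covered by 9 tested genes. With BBR 5 fell and 1 rose, with a median log2 change of -0.35. Slc22a5, the carnitine transporter, was the one that rose, from 12.5 ± 1.03 CPM in control to 18.7 ± 1.85 CPM with BBR (0.60 ± 0.09, adjusted p = 0.000136). It was also higher with BBR+OA than with OA (0.60 ± 0.10, adjusted p = 0.00226), the only gene of this list called there by edgeR. DESeq2 called 2, and edgeR also called 2 without OA replicate 3 or BBR+OA replicate 1. Bbox1, which completes carnitine synthesis after the Aldh9a1 step, fell from 3.500 ± 0.71 to 1.59 ± 0.444 CPM (-1.12 ± 0.23, adjusted p = 0.00174), and Bhmt2, a betaine-homocysteine methyltransferase paralog, from 8.87 ± 1.02 to 4.602 ± 0.826 CPM (-0.96 ± 0.15, adjusted p = 0.000117). With OA 3 fell: Chdh, the choline dehydrogenase that forms betaine aldehyde (-0.85 ± 0.08, adjusted p = 2.08e-06), Bhmt (-0.34 ± 0.08, adjusted p = 0.00356) and Dmgdh (-0.33 ± 0.07, adjusted p = 0.00176). BBR+OA against BBR had 4 higher and 1 lower, with 2 called in all in the FPKM analysis. The interaction was called positive for 5 of the 9, including Bbox1 (1.37 ± 0.33, adjusted p = 0.00962), Bhmt2 (1.16 ± 0.22, adjusted p = 0.00142) and Bhmt (0.75 ± 0.18, adjusted p = 0.00953).

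Branched-chain amino acid and propionate catabolism, the route of Aldh6a1, had 23 genes in the files. With OA 12 fell and 2 rose, with a median log2 change of -0.30. Bckdha, a subunit of the branched-chain ketoacid dehydrogenase, averaged 40.6 ± 1.29 CPM in control and 22.1 ± 1.56 CPM with OA (-0.87 ± 0.07, adjusted p = 2.21e-07). Mccc2 (-0.55 ± 0.11, adjusted p = 0.000909) and Acad8 (-0.49 ± 0.08, adjusted p = 0.000257) also fell with OA. With BBR 7 of 22 tested genes fell and 2 rose, and Hibch, which releases hydroxyisobutyrate from its CoA ester upstream of Aldh6a1, went from 23.5 ± 1.15 to 16.97 ± 1.22 CPM (-0.46 ± 0.08, adjusted p = 0.000276). Only Pcca was called between BBR+OA and OA (0.31 ± 0.08, adjusted p = 0.041), in 5 of 13 alternatives and not in DESeq2. Of 22 tested between BBR+OA and BBR, 2 rose and 3 fell. The interaction was called positive for 6 of the 23, including Hibch (0.72 ± 0.11, adjusted p = 0.000345) and Acad8 (0.57 ± 0.11, adjusted p = 0.00167), and the count was 3 without OA replicate 2 or BBR+OA replicate 3.

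In proline and hydroxyproline metabolism, the route of Aldh4a1, 4 of 11 tested genes fell with BBR and none rose, with a median log2 change of -0.16. Glud1, the glutamate dehydrogenase, averaged 1324 ± 50.8 CPM in control, 895 ± 39.1 CPM with OA, 865 ± 65.8 CPM with BBR and 952 ± 19.1 CPM with BBR+OA. Its log2 change was -0.61 ± 0.06 (adjusted p = 1.20e-06) with BBR and -0.56 ± 0.05 (adjusted p = 1.59e-06) with OA. Hoga1, of hydroxyproline breakdown, fell with BBR (-0.61 ± 0.12, adjusted p = 0.00126). With OA 2 rose and 1 fell (5 called without control replicate 2), and Pycr1, which makes proline, rose from 3.502 ± 0.701 to 5.95 ± 0.946 CPM (0.76 ± 0.17, adjusted p = 0.00273). Prodh, the proline dehydrogenase that acts before Aldh4a1, was higher with BBR+OA than with BBR (0.62 ± 0.08, adjusted p = 1.79e-05), where 4 rose and none fell. Between BBR+OA and OA none was called by edgeR or DESeq2, and 1 was higher at an unadjusted p under 0.05. The interaction was called positive for Glud1 (0.70 ± 0.08, adjusted p = 1.77e-05) and Prodh (0.55 ± 0.10, adjusted p = 0.00165), and for 4 genes without OA replicate 3.

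Lysine catabolism, the route of Aldh7a1, had 7 tested genes. Aass, the first enzyme of the saccharopine route, averaged 7.500 ± 1.503 CPM in control and 15.5 ± 2.64 CPM with OA (1.06 ± 0.15, adjusted p = 5.22e-05), and 6.66 ± 0.367 CPM with BBR and 18.7 ± 2.19 CPM with BBR+OA (1.49 ± 0.11, adjusted p = 1.03e-07 between them). With OA 2 rose and 1 fell, and between BBR+OA and BBR 5 rose and none fell, with a median log2 change of 0.51. With BBR 2 fell, Pipox of the pipecolate route (-0.52 ± 0.11, adjusted p = 0.00158) and Gcdh (-0.28 ± 0.07, adjusted p = 0.00632), and none rose. Between BBR+OA and OA none was called by edgeR or DESeq2, and 4 were higher at an unadjusted p under 0.05. The interaction was positive for Pipox (0.67 ± 0.15, adjusted p = 0.00554) and Gcdh (0.51 ± 0.10, adjusted p = 0.0026).

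Kynurenine catabolism, the route of Aldh8a1, had 9 tested genes. With BBR 6 fell and none rose, with a median log2 change of -0.59, and in DESeq2 4 fell. Acmsd, the enzyme whose product Aldh8a1 oxidizes, averaged 14.8 ± 2.03 CPM in control, 39.7 ± 0.766 CPM with OA, 6.24 ± 0.416 CPM with BBR and 34.5 ± 2.45 CPM with BBR+OA. Its log2 change was -1.23 ± 0.12 (adjusted p = 1.08e-06) with BBR and 1.43 ± 0.09 (adjusted p = 1.52e-08) with OA. Kynu, the kynureninase, went from 24.4 ± 1.55 to 10.5 ± 1.61 CPM with BBR (-1.20 ± 0.10, adjusted p = 1.89e-07), and Qprt, of NAD synthesis from tryptophan, from 30.6 ± 1.44 to 16.7 ± 2.18 CPM (-0.85 ± 0.08, adjusted p = 1.77e-06). Tdo2, the first enzyme of the route, fell with OA from 35.2 ± 1.96 to 10.8 ± 1.36 CPM (-1.70 ± 0.09, adjusted p = 5.36e-09), and Afmid fell as well (-1.03 ± 0.10, adjusted p = 1.24e-06). With OA 4 fell and 1 rose, and the count of 5 was 3 without OA replicate 2. Relative to BBR, 5 rose and 2 fell with BBR+OA. Between BBR+OA and OA none was called by edgeR or DESeq2, and 1 was higher and 1 lower at an unadjusted p under 0.05. The interaction was positive for Acmsd (1.04 ± 0.13, adjusted p = 6.00e-05), Kynu (1.04 ± 0.14, adjusted p = 8.61e-05) and Qprt (0.98 ± 0.13, adjusted p = 0.000114).

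**Figure D4:**
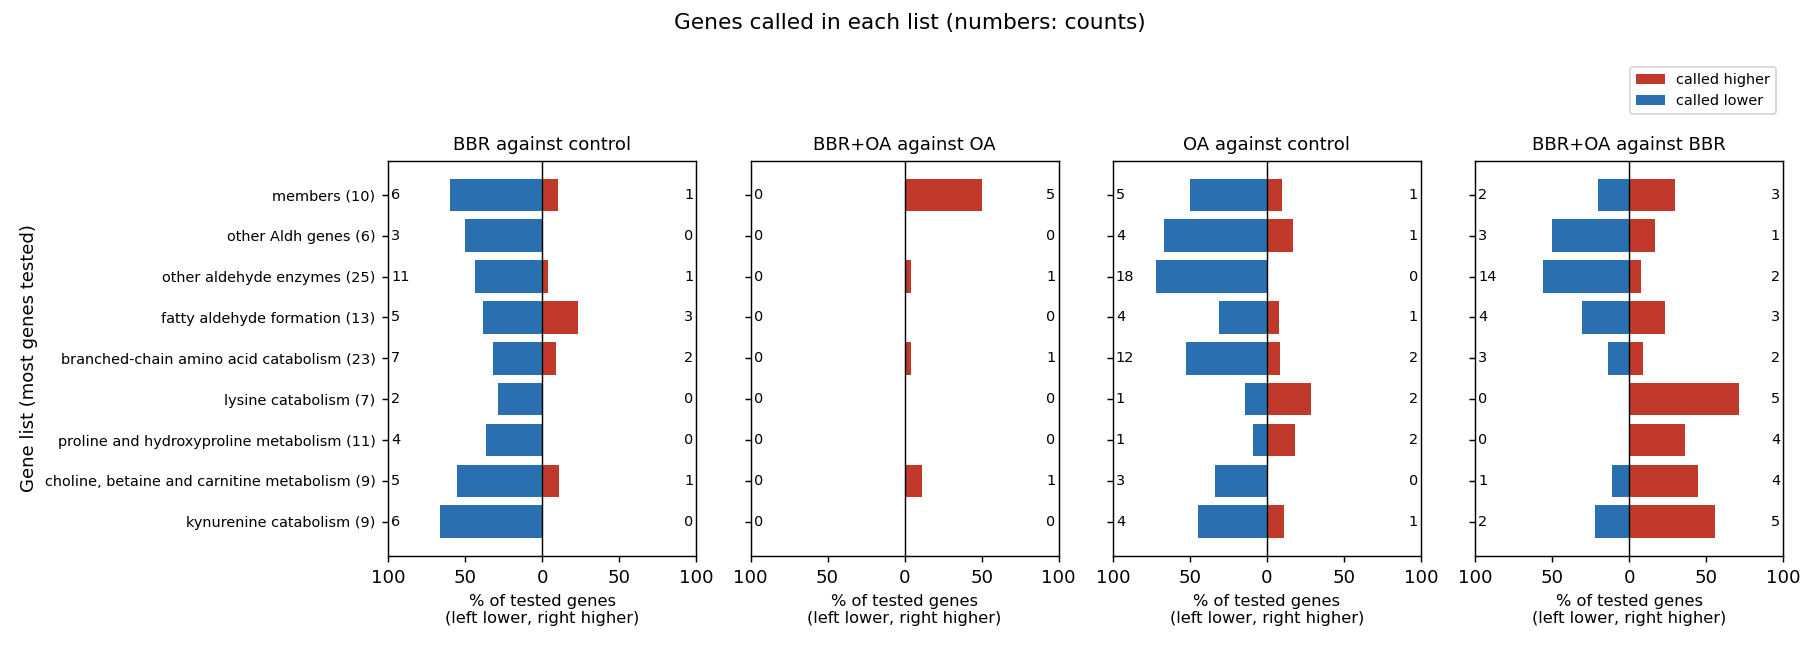
Share of the tested genes of each list called higher (right) or lower (left) in each comparison (horizontal axes, percent), with the counts at the sides and the largest number tested in parentheses. The other aldehyde enzymes were called lower in 18 of 25 with OA, where 21.5% of all genes were called lower. None was called lower with BBR+OA against OA, where only 2.63% of all genes were. All rows are a description, since the members were chosen on these libraries and the other lists with earlier results of them known.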

How the data were processed

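RNA sequencing of 12 primary hepatocyte libraries was analysed. Per the labels, polyadenylated RNA was fragmented, reverse transcribed from random primers and read on an Illumina HiSeq. The authors deposited, per library, an estimated count and an FPKM value for 22471 features. The genome build mm10 is named in the submitters' processing notes, and the aligner, the counting program, its annotation and its strand setting are not given in the sources used here. Positions and lengths came from GENCODE mouse release 21 (GRCm38), which held 99.71% of the 21911 Ensembl identifiers. Groups and replicate numbers came from the sample titles.

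Estimated counts were rounded, filtered by filterByExpr (minimum count 10), scaled by TMM and fitted in edgeR 4.0.16 (R 4.3.3) on the 6 libraries of each comparison, or on all 12 for the interaction. The two-sided quasi-likelihood F test was used with Benjamini-Hochberg adjustment over all genes tested, and genes were called at an adjusted p under 0.05. Standard errors were derived from the F statistic. The edgeR fit of BBR against control was tested on simulated counts. Deposited FPKM values served for levels and, as log2(FPKM + 1) in limma 3.58.1, as an alternative, which understates the change of low genes. Other alternatives were RLE and upper quartile scaling, DESeq2 1.42.0, no filter on low counts, a replicate block, 1 fit of all libraries, and leaving out each library in turn. All replicate pairs differed by more than counting noise (chi-square per degree of freedom, 2.69 to 7.26).

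The members and all lists were chosen with earlier results of these data known. Named were all Aldh genes, up to 3 called genes per list and comparison with the largest change, and the 3 genes nearest in profile to each of the 3 members with the widest range. Bcat2, near the detection floor, and some other genes of this rule are covered by the counts only.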

Additional observations from a re-analysis of the deposited data

Results flagged for a closer look

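The interaction term over the 12 libraries (edgeR, adjusted p under 0.05) was called for 10 Aldh genes. Over all 12742 genes tested, 6.87% were called with a positive term and 5.31% with a negative one. Each value is the log2 BBR effect with OA minus that without OA, and all are positive. For 7 of them, members whose choice used these same libraries, the values are a description and not a test that the effect differed: the difference was 1.06 for Aldh1a1, 0.95 for Aldh8a1, 0.87 for Aldh1a7, 0.47 for Aldh6a1, 0.31 for Aldh7a1, 0.29 for Aldh3a2 and 0.23 for Aldh9a1. Among the Aldh genes that are not members, the BBR effect differed with and without OA by 0.72 for Aldh5a1, 0.33 for Aldh18a1 and 0.27 for Aldh1l1. Of these terms only that of Aldh5a1 was called in every alternative. Those of Aldh18a1 (edgeR adjusted p = 0.0487) and Aldh1l1 were each lost in several. For Aldh1a1 and Aldh1a7 the effect had opposite directions, called lower without OA and higher with it. The call for Aldh1a1 with OA was kept in 7 of 13 alternatives. It was lost with FPKM in limma, in the fit of all 12 libraries, and without OA replicate 2 or any 1 of the BBR+OA replicates. For Aldh9a1 both effects were called higher and the effect was larger with OA, but its interaction term was not called without OA replicate 2. For Aldh8a1, with 25 to 53 counts per library in the BBR and BBR+OA groups, the term was lost without control replicate 2 or 3, OA replicate 2, BBR replicate 2 or 3, or BBR+OA replicate 1 or 3.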

How the results depend on the processing

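No called difference of an Aldh gene or of a gene of the lists changed sign under any alternative. Small differences that were not called did, such as that of Aldh3a2 between BBR and control (0.04 on the log2 scale, from -0.06 to 0.11) and that of Aldh4a1 between BBR+OA and OA (0.06, from -0.02 to 0.12). Which direction held more calls also turned. BBR+OA had 2496 genes higher and 2330 lower than BBR, against 1976 and 2870 with upper quartile scaling (members 3 and 2, against 2 and 3) and 1901 and 1961 with FPKM in limma. With OA present, BBR gave 240 higher and 323 lower genes, against 89 and 85 with FPKM in limma, 131 and 118 when OA replicate 2 was dropped, and 109 and 107 when the third BBR+OA replicate was. In the interaction, 875 terms were positive and 676 negative, against 503 and 524 without OA replicate 2, and the negative ones were also more numerous without any 1 of the BBR+OA replicates. Between OA and control the directions were nearly even, with 2643 higher and 2668 lower, against 2704 and 2619 with RLE scaling. Between BBR+OA and OA, 563 genes were called, and this count moved to 174 with FPKM in limma and to 216 to 632 when 1 library was left out. The count of members called there moved from 5 to 3 with FPKM in limma and to 3 in the fit of 12 libraries, and ranged from 3 to 5 when 1 library was left out. For the interaction, 1551 genes were called, with 1027 to 1679 when 1 library was left out, lowest without OA replicate 2 or BBR replicate 2. The members called there ranged from 3 to 8. In the other comparisons the members called ranged from 5 to 7 (BBR against control), 6 to 7 (OA against control) and 5 to 6 (BBR+OA against BBR) when 1 library was left out. With 2 libraries left in a group, its spread was pooled with that of the other group.

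Same-numbered replicates deviated together with correlations of 0.0234 to 0.156 over the comparisons, and the labels do not say that a number marks a shared animal or day, so the numbers were not taken as pairs. As a hint from the data, libraries correlated best with their own number except in replicate 2 of BBR+OA and OA. With a replicate block the genes called between BBR+OA and OA moved from 563 to 1333 and the members called stayed at 5, and in the interaction they moved from 1551 to 2265 and from 7 to 8.

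Another scaling shifted the median log2 difference of all genes by -0.0464 to 0.00411. Depth limits Aldh1b1 and Aldh8a1 most, at 25 to 135 counts per library.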
